A study of Mus musculus with 48 samples.

Results

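The distal chromosome 4 window examined here spans bases 145000001 to 148000000 of mouse chromosome 4 on build mm9 and was proposed as a repeat-rich cluster of zinc finger genes. It holds 1576 of 630424 ATAC-seq summits, the positions of highest read density within peaks of open chromatin. Of these, 555 of 251512 came from a pool of Ad-CMV-Cre libraries, 616 of 172434 from a pool of Ad-CGRP-Cre libraries and 405 of 206478 from a pool of both. The window was chosen by its summit density in the CGRP pool, the highest of 792 windows of 3 Mb, so that density is given as a description only and nothing is tested with it. Values of all 3 pools were known when it was proposed.

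ATAC-seq uses the Tn5 transposase to insert sequencing adapters into accessible DNA, here in tumors of mice that model small cell lung cancer. All 48 libraries share the labelled genotype Trp53-/-;Rb1-/-;p130-/-;R26mG, in which Cre recombinase removes 3 tumor suppressor genes. Cre was carried by an adenovirus and driven either by the CMV promoter, which is active in most cell types (Ad-CMV-Cre), or by that of CGRP, which neuroendocrine cells make (Ad-CGRP-Cre). The CMV pool merges 19 Ad-CMV-Cre libraries of sample preparation batch 1, from 10 liver metastases and 9 lung tumors, of which 8 carry an amplification of Nfib and 15 carry the submitters' mark for low enrichment. The CGRP pool merges 14 Ad-CGRP-Cre libraries of preparation batch 2, from 7 liver metastases and 7 lung tumors, 1 of them Nfib-amplified. The mixed pool merges 15 libraries of preparation batch 3, with 11 Ad-CMV-Cre and 4 Ad-CGRP-Cre libraries from 11 lung tumors, 3 liver metastases and 1 lymph node metastasis, 6 of them Nfib-amplified. Not given in the sources used here is the age of the animals. Summits were listed once per pool, so there is no replicate of any value below, and vector, batch, number of libraries and enrichment cannot be told apart between pools. Of the CMV libraries, 15 were of sequencing batch 1 and 4 of batch 3, while all CGRP libraries were of sequencing batch 2 and all mixed libraries of batch 3. Depth per pool is unknown. Intervals are 95% intervals that cover counting error only.

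KRAB zinc finger genes encode DNA-binding proteins that recruit the corepressor TRIM28 (KAP1) and heterochromatin to the sites they bind, many of them in transposable elements. The genes lie in clusters of recent tandem copies and differ much between mouse strains and species. Clusters of this kind are known to carry heterochromatin marks over the gene bodies themselves.

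The name of the window could not be checked against coordinates, because the gene table used here (RefSeq, GRCm38.p6) is of another build than the summits. In that table, the longest run of zinc finger genes on chromosome 4 holds 18 neighbouring protein-coding genes from Zfp990 to Zfp933, of which 16 have a Zfp symbol and the remaining genes are Gm13212 and Rex2. Tnfrsf1b and Tnfrsf8, which encode receptors of the tumor necrosis factor family, lie before the run. It is followed by Miip, by Fv1, a retrovirus restriction gene, by Mfn2, a gene of mitochondrial fusion, and by the natriuretic peptide genes Nppb and Nppa. No summit is assigned to any of these genes.

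How alike copies of the run can be is shown by 4 of their promoters, picked by name and with the closest pair of the run among them. Each has 300 bases around the annotated start from RefSeq (GRCm38.p6), 5′ to 3′ on the strand of the gene. Capitals mark bases not matched to the promoter of Rex2, a KRAB zinc finger gene, in an end-to-end alignment. They include bases past its end, and bases missing from a copy leave no mark.
Rex2: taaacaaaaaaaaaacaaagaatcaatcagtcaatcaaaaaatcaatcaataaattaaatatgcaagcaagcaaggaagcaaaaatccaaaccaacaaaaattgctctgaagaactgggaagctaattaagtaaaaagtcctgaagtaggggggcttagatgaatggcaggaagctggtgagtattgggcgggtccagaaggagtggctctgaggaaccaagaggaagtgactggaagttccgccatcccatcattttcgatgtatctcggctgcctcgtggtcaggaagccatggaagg
Zfp600: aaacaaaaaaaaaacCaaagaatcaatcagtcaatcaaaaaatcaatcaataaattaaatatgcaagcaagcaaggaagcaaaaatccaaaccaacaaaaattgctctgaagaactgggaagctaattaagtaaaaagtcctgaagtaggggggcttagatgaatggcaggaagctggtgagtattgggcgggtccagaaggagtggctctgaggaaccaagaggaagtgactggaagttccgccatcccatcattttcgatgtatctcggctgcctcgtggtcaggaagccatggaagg
Zfp979: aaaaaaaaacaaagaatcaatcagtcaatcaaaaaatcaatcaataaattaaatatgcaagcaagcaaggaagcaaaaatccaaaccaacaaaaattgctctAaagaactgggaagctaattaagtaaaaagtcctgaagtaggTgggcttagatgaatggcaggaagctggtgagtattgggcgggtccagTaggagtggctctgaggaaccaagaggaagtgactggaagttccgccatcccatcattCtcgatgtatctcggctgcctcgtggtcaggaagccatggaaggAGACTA
Zfp980: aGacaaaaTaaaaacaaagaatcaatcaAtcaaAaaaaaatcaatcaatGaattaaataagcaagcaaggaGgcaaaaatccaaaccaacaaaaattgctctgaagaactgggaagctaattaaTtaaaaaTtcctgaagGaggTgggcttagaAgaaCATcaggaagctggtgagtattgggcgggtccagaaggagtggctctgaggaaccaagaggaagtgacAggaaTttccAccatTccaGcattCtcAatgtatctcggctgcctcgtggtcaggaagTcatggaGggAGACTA
Zfp600 has 2 promoter entries, of which the one closer to Rex2 is shown. It differed from the promoter of Rex2 by 2 single-base edits and shared an unbroken stretch of 284 bases with it. Zfp979 differed from Rex2 by 16 edits, with 93 bases as the longest identical stretch, and Zfp980 by 35 edits, with 65 bases. The capitals that end both copies lie past the end of the Rex2 entry. Edits here and below thus also count shifts of the 300-base stretch, not only differences in sequence, and most edits of Zfp979 are of this kind. Of the 18 genes, 14 have a promoter entry. The closest other promoter of the run was 2 to 158 edits away (median 33), and 11 of the 14 had one within 50 edits. Among the next 18 protein-coding genes, 15 have an entry, their closest other promoter among these genes was at least 144 edits away and 0 lay within 50 edits. Not given in the sources used here is how the authors' alignment treated reads that match several places.

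Compared with its flanks, the window was dense in CMV and CGRP summits and not in mixed summits. The CMV pool had 200, 197 and 158 summits in the 3 successive megabases of the window, against 31 to 184 in the 14 flanking megabases, which run from 138000001 to 145000000 and from 148000001 to 155000000. The first and second of these values lie above every flanking megabase. The CGRP pool had 226, 224 and 166 summits, against 7 to 190 in the flanks, and again the first and second lie above the flanking range. The mixed pool had 120, 133 and 152 summits, all inside its flanking range of 6 to 212. Per megabase, the CMV pool held 185 summits in the window and 117 in the flanks, a ratio of 1.58 (1.43 to 1.74). The CGRP pool held 205 and 132, a ratio of 1.55 (1.41 to 1.70), and the mixed pool 135 and 134, a ratio of 1.01 (0.903 to 1.12). The sixth megabase of the left flank, from 143 Mb, was nearly empty in the CGRP and mixed pools, with 7 and 6 summits beside 31 in the CMV pool.

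**Figure D1:**
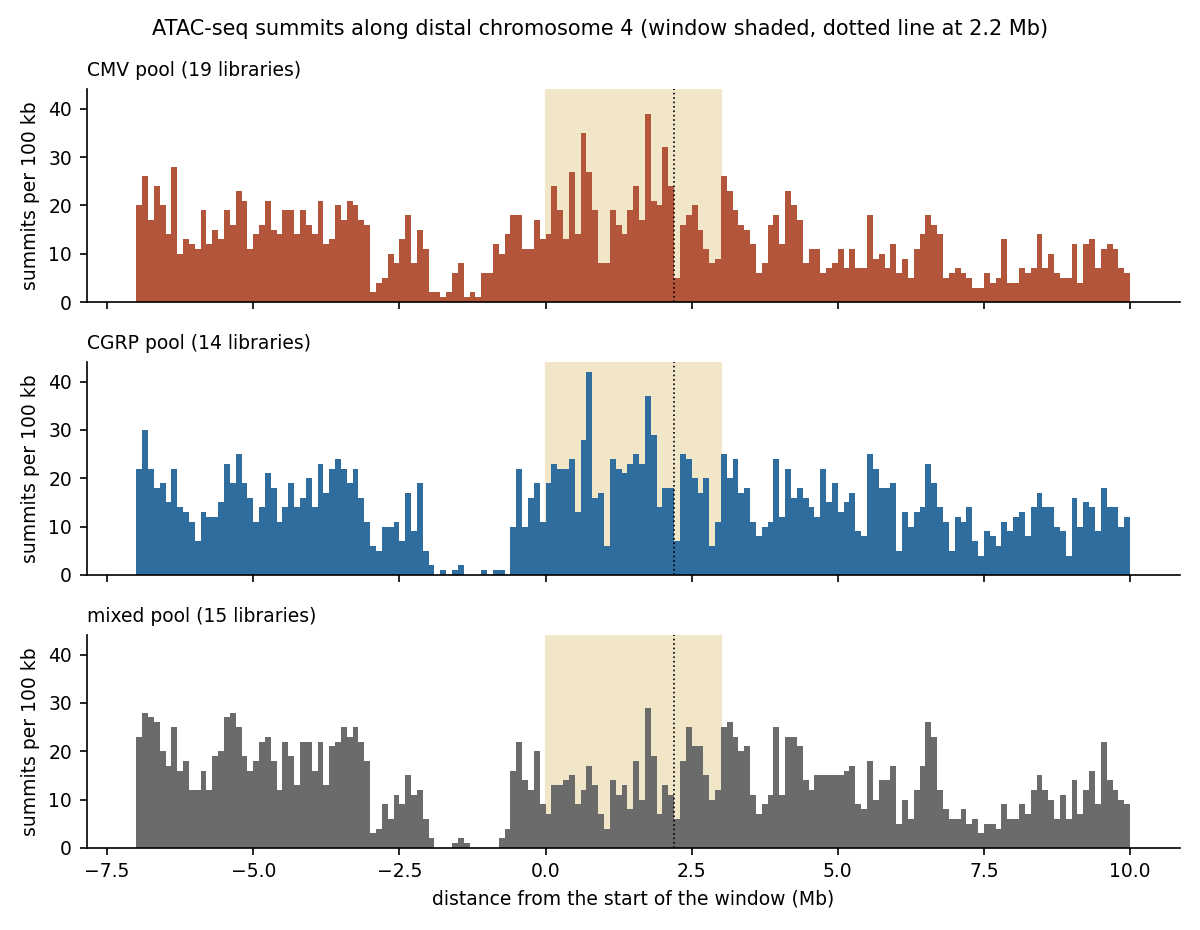
Summits per 100 kb (vertical axis) along distal chromosome 4 by distance from the start of the window in Mb (horizontal axis), 1 panel per pool, with the window shaded and a dotted line at 2.2 Mb. The CMV and CGRP panels rise to 39 and 42 summits per 100 kb inside the window, while the mixed panel reaches 29 there and lies below both others in 21 of the 22 bins before the dotted line.

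Among 792 windows of 3 Mb with at least 50 summits in each pool, the window ranked 1st by number of CGRP summits, 15th by CMV summits and 26th by mixed summits. The median window held 212, 298.5 and 262.5 summits of these pools, so the mixed pool too was dense here compared with most of the genome. The CGRP to CMV ratio of summit numbers was 1.11 in the window and 1.13 in its flanks (0.951 on the left, 1.36 on the right), against 0.643 over chromosome 4 and 0.686 over the whole lists. The excess of CGRP over CMV summits relative to the lists was therefore as large in the flanks as in the window. The mixed to CMV ratio was 0.730 in the window and 1.14 in its flanks, and the mixed to CGRP ratio 0.657 and 1.01. The mixed pool had fewer summits than both other pools in 21 of the 30 bins of 100 kb, and all 21 lie in the first 2.2 Mb.

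The 100 kb from 146.7 to 146.8 Mb was dense in every pool, with 39 CMV, 37 CGRP and 29 mixed summits, the highest bin of the CMV and mixed pools and the second of the CGRP pool. The densest CGRP bin, from 145.7 to 145.8 Mb, held 42 summits. The next densest CMV bins, from 145.6 and from 147 Mb, held 35 and 32. The next mixed bins, from 147.4 and from 147.5 Mb, held 25 and 21, with 21 from 147.6 Mb as well, and the third CGRP bin, from 146.8 Mb, held 29. At the sparse end, the 100 kb from 147.2 to 147.3 Mb had 5 CMV, 7 CGRP and 6 mixed summits, and those from 146 Mb had 8, 6 and 4. Counts at the low end were often tied. There were also 8 CMV summits from 145.9 and from 147.8 Mb, 6 CGRP summits from 147.8 Mb, and 7 mixed summits in the opening 100 kb, from 145.9 Mb and from 146.9 Mb. Over the 30 bins, counts followed each other between CMV and CGRP (Pearson's r of 0.71, Spearman's rho of 0.66), CGRP and mixed (0.63 and 0.63) and CMV and mixed (0.51 and 0.46). These are descriptions over bins of 1 stretch of sequence, which share its base composition and repeats. The longest stretch without a summit ran from 145771114 to 145829764 in the CMV pool (58651 bp), from 147844293 to 147907987 in the CGRP pool (63695 bp) and from 145966603 to 146034709 in the mixed pool (68107 bp).

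Most of these summits had low scores. A score is −log10 of the q-value at the summit and ranks summits within a list only. The median score of CMV summits was 5.43 in the window (interval 4.89 to 5.85) and 11.3 in the flanks, and that of CGRP summits 6.15 (5.64 to 6.82) and 24.1. Mixed summits had medians of 5.996 (5.45 to 6.58) and 19.3. In the window 27.9% of CMV summits, 17.9% of CGRP summits and 24.2% of mixed summits lay above the median of their list, against 56.8%, 49.9% and 53.0% in the flanks. Ranked from the lowest median score among the 792 windows, the window came 2nd in the CGRP pool and 2nd in the mixed pool, but 95th in the CMV pool. The median of those windows was 24.2, 17.3 and 10.6 in the CGRP, mixed and CMV pools.

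The change of score along the window was abrupt. In each of the 22 bins of 100 kb before 147.2 Mb, the median score was 3.72 to 7.51 in the CMV pool, 3.59 to 7.64 in the CGRP pool and 3.21 to 8.02 in the mixed pool. In the bin that starts at 147.2 Mb it was 99.5, 120.6 and 131.3, from only 5 CMV, 7 CGRP and 6 mixed summits. Over the last 8 bins it was 5.28 to 99.5, 9.47 to 120.6 and 19.1 to 131.3. The bins before and after this point did not overlap in the CGRP and mixed pools and overlapped in the CMV pool. The point was chosen after these values were seen, so the values on either side are a description. Before it, the 3 pools held 206 CMV, 221 CGRP and 126 mixed summits per Mb, with median scores of 4.79, 5.396 and 4.78. After it, the last 0.8 Mb held 127.5, 162.5 and 160.0 summits per Mb. The medians there were 14.4 (9.62 to 20.9), 28.7 (17.8 to 55.1) and 30.1 (20.5 to 40.4). Each lay above the median of the flanks, but only the mixed interval left the flank median out. The proposed window thus joins a long stretch of low-scoring summits to a short one with median scores near or above those of the flanks.

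**Figure D2:**
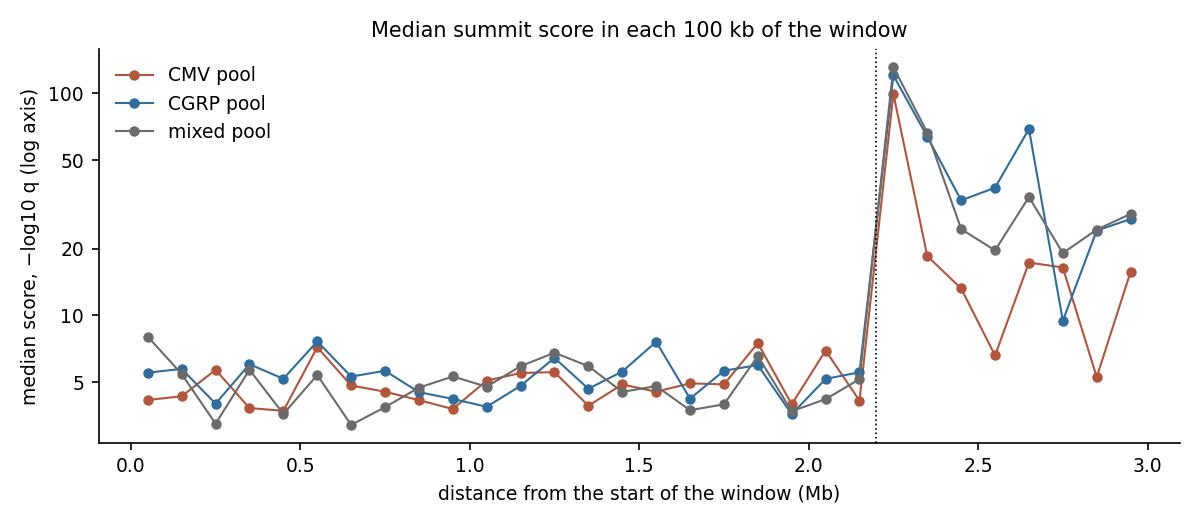
Median summit score, −log10 q on a log axis (vertical), in each 100 kb of the window by distance from its start in Mb (horizontal), with 1 line per pool and a dotted line at 2.2 Mb. All medians before the line lie between 3.21 and 8.02. The bin just after the line has medians of 99.5 (CMV), 120.6 (CGRP) and 131.3 (mixed), from 5, 7 and 6 summits.

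At the start of the window, the nearest summits outside lay at 144997660 (CMV, score 2.24), 144997719 (CGRP, 4.39) and 144997421 (mixed, 3.803), and the nearest inside at 145006538 (2.96), 145002782 (5.58) and 145020289 (2.62). At the end, the last summits inside lay at 147982145 (CMV, 12.2), 147982060 (CGRP, 18.7) and 147994094 (mixed, 6.86). The nearest outside lay within 16 bp of each other at 148001082 (CMV, 256.7), 148001074 (CGRP, 696.8) and 148001066 (mixed, 335.1). These single summits do not stand for their surroundings. The 100 kb just before the window had median scores of 10.9 (CMV), 29.0 (CGRP) and 61.3 (mixed), against 4.16, 5.53 and 8.02 in the opening 100 kb inside, so scores dropped at its start as well. A strong site of all 3 pools lay just past its end.

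The surplus of summits belonged to the low scores. Below a score of 5, density in the window over that in the flanks was 2.70 (2.31 to 3.15) for CMV, 4.09 (3.44 to 4.87) for CGRP and 2.49 (2.05 to 3.02) for mixed summits. At scores of 5 to 20 the ratio was 1.83 (1.57 to 2.13), 2.00 (1.71 to 2.33) and 1.10 (0.919 to 1.32). At 20 to 100 it was 0.430 (0.306 to 0.590), 0.599 (0.459 to 0.770) and 0.380 (0.279 to 0.507). At 100 or more it was 0.478 (0.248 to 0.847), 0.529 (0.389 to 0.705) and 0.553 (0.380 to 0.782). As a whole, the window was thus denser than its flanks in summits under 5 and sparser in those of 20 or more, in all 3 pools. When the 100000 best summits of each list were kept, the ratio fell below 1 in every pool, to 0.564 (CMV), 0.600 (CGRP) and 0.452 (mixed). The first 2.2 Mb held 1 CMV, 6 CGRP and 1 mixed summit with a score of 100 or more, and the last 0.8 Mb held 12, 46 and 35. Density of such summits in the last 0.8 Mb over the flanks was 1.65 (0.832 to 2.99), 1.75 (1.27 to 2.38) and 2.01 (1.38 to 2.86). Of these intervals, only that of CMV included 1.

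**Figure D3:**
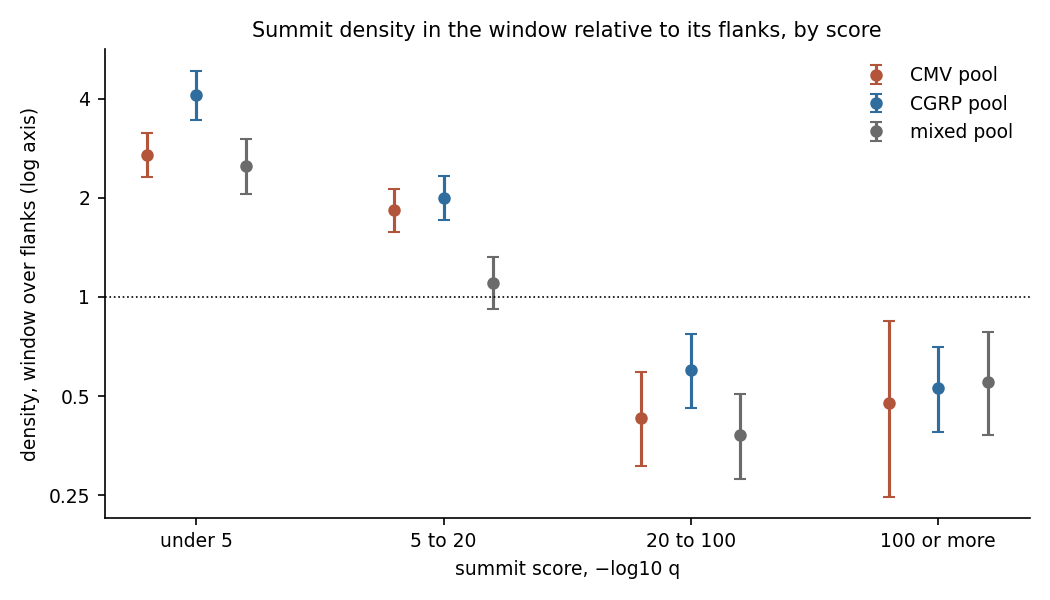
Summit density in the window divided by that in both flanks (vertical, log axis) for 4 classes of score, −log10 q (horizontal), with 1 point per pool and bars for the exact 95% interval from counting. Points lie above 1 for scores under 5 (2.49 to 4.09) and below 1 from a score of 20 (0.380 to 0.599).

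Spacing restates density in another form, so the CGRP values, whose density chose the window, are again a description. The median distance between neighbours was 2811.5 bp in the window and 5427.5 bp in the flanks for CMV summits, 2847 and 5071 bp for CGRP summits, and 4938.5 and 4466 bp for mixed summits. Neighbours within 1000 bp made up 32.7%, 31.4% and 23.8% of the distances in the window, against 22.8%, 22.3% and 22.3% in the flanks. Pairs within 250 bp made up 5.96% of CMV, 6.18% of CGRP and 4.46% of mixed distances, against 3.96%, 2.16% and 2.40% in the flanks. A peak with several summits accounted for 32.4% of CMV, 30.5% of CGRP and 26.7% of mixed summits in the window, and for 29.9%, 27.7% and 28.3% in the flanks. After summits within 250 bp were joined, each ratio of median spacing stayed within its counting interval.

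The strongest members lay at few places. The 5 highest summits of each pool, 15 in all, fell into 6 loci, all after 147.2 Mb, and each had a summit of both other pools within 250 bp. The highest of every pool were 147242757 in the CMV pool (score 629.5), 147242772 in the CGRP pool (3158) and 147242773 in the mixed pool (1829.5). Each scored above at least 99.6% of its list. At the locus near 147822581 the summits scored 390.8 (CMV), 1568 (CGRP) and 870.7 (mixed), and near 147662296 they scored 361.5, 1634 and 819.8. Near 147965541 the scores were 348.6, 1256 and 763.0, near 147534150 they were 263.3, 1809.7 and 639.9, and near 147413112 they were 231.4, 1599 and 796.8. Summits of different pools at these 6 loci lay 0 to 48 bp apart.

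In the first 2.2 Mb the highest summits were far weaker. The highest CMV summit, at 145364428, scored 124.0 and had a CGRP summit 8 bp away (140.5) and a mixed summit 71 bp away (99.2). The highest CGRP and mixed summits of that stretch, at 147183870 and 147183858, scored 163.0 and 107.4, with a CMV summit at 147183865 (57.9). The highest CMV, CGRP and mixed summits of the stretch, at 2 sites, scored above 92.7%, 81.5% and 84.2% of their lists. Not every strong summit there was shared. The CGRP summit at 145942952, the 5th of that stretch with a score of 134.8, had no other pool's summit within 250 bp. The CGRP summit at 146488336 (145.9) had a mixed summit 42 bp away with a score of 4.07 and no CMV summit. These summits before 147.2 Mb were singled out after their values were seen.

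Compared with these flanks, summits of the window were less often shared in the CMV and CGRP pools. Of CMV summits, 64.9% (60.8 to 68.7) lay within 250 bp of a CGRP summit and 51.7% (47.6 to 55.8) within 250 bp of a mixed summit, against 74.7% and 84.2% in the flanks. Of CGRP summits, 58.4% (54.5 to 62.3) lay near a CMV summit and 53.1% (49.1 to 57.0) near a mixed one, against 65.2% and 79.6%. Of mixed summits, 71.1% (66.5 to 75.3) lay near a CMV summit and 78.5% (74.3 to 82.2) near a CGRP one, against 72.3% and 78.7%. The difference was smaller against single flanks in some pairs: 68.5% (65.5 to 71.4) of CMV summits lay near a CGRP summit in the left flank, and 60.2% (57.1 to 63.3) of CGRP summits near a CMV summit in the right flank, intervals that overlap those of the window. In the CMV and CGRP pools the shares rose inside the window. Before 147.2 Mb, 60.3% of CMV summits lay near a CGRP summit and 43.3% near a mixed one. After it these shares were 85.3% (77.1 to 90.9) and 89.2% (81.7 to 93.9). Both flanks together had 74.7%, below the first interval, and 84.2%, inside the second. The right flank alone had 82.9% and 90.0%, inside these intervals. Of CGRP summits before 147.2 Mb, 56.0% (51.5 to 60.3) lay near a CMV summit and 45.5% (41.1 to 49.9) near a mixed one. After it these CGRP shares were 67.7% (59.2 to 75.1) and 81.5% (74.0 to 87.3), close to both flanks together. The intervals of the share near a CMV summit overlapped. Compared with windows elsewhere, sharing with either other pool was low in the CGRP pool only. The share near either other pool was 71.3% for CGRP summits, 2nd from the lowest of 792 windows with a median of 87.3%. It was 73.0% for CMV summits, 367th from the lowest with a median of 74.7%, and 89.1% for mixed summits, 312th with a median of 90.1%. The CGRP share is a description only, because its denominator is the number of CGRP summits by which the window was chosen. Over the whole CMV list 67.2% lay near either other pool and 49.9% near a CGRP summit, below the values of the window. Near a mixed summit lay 64.0% of that list, above the 51.7% of the window. Shared summits scored higher than the others in the window too, with medians of 6.95 and 3.79 for CMV summits with and without a CGRP summit nearby. For CGRP summits with and without a mixed one nearby, the medians were 10.9 and 4.30.

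Within classes of score the picture differed by pair of pools. Of CMV summits with a score under 5, 31.3% (25.9 to 37.2) of 259 in the window lay near a mixed summit, against 60.5% (55.9 to 64.9) of 448 in the flanks. At scores of 5 to 20 the shares were 63.5% (57.2 to 69.3) and 87.8% (84.9 to 90.1). The share of CMV summits near a CGRP summit was 49.0% and 46.7% below a score of 5, and 74.7% and 75.7% at 5 to 20, with intervals that overlapped. The lower overall share of CMV summits near CGRP ones in the window was thus not seen within these classes. In the other direction, CGRP summits under 5 lay near a CMV summit in 44.0% (38.0 to 50.2) of 250 in the window and 26.3% (21.5 to 31.7) of 285 in the flanks. At scores of 5 to 20 the shares were 61.2% (55.0 to 67.1) and 46.2% (42.1 to 50.3). Near a mixed summit, however, lay 53.9% (47.6 to 60.0) of CGRP summits of 5 to 20 in the window and 68.5% (64.6 to 72.2) in the flanks. Under 5 these shares were 32.4% (26.9 to 38.4) and 38.9% (33.5 to 44.7), with intervals that overlapped. Mixed summits under 5 lay near a CGRP summit in 66.9% (59.4 to 73.6) and 45.7% (40.2 to 51.2). The pools nearby were denser in the window as well, 205 CGRP summits per Mb against 132 and 185 CMV summits against 117, and the part of this density in the shares was not tested.

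**Figure D4:**
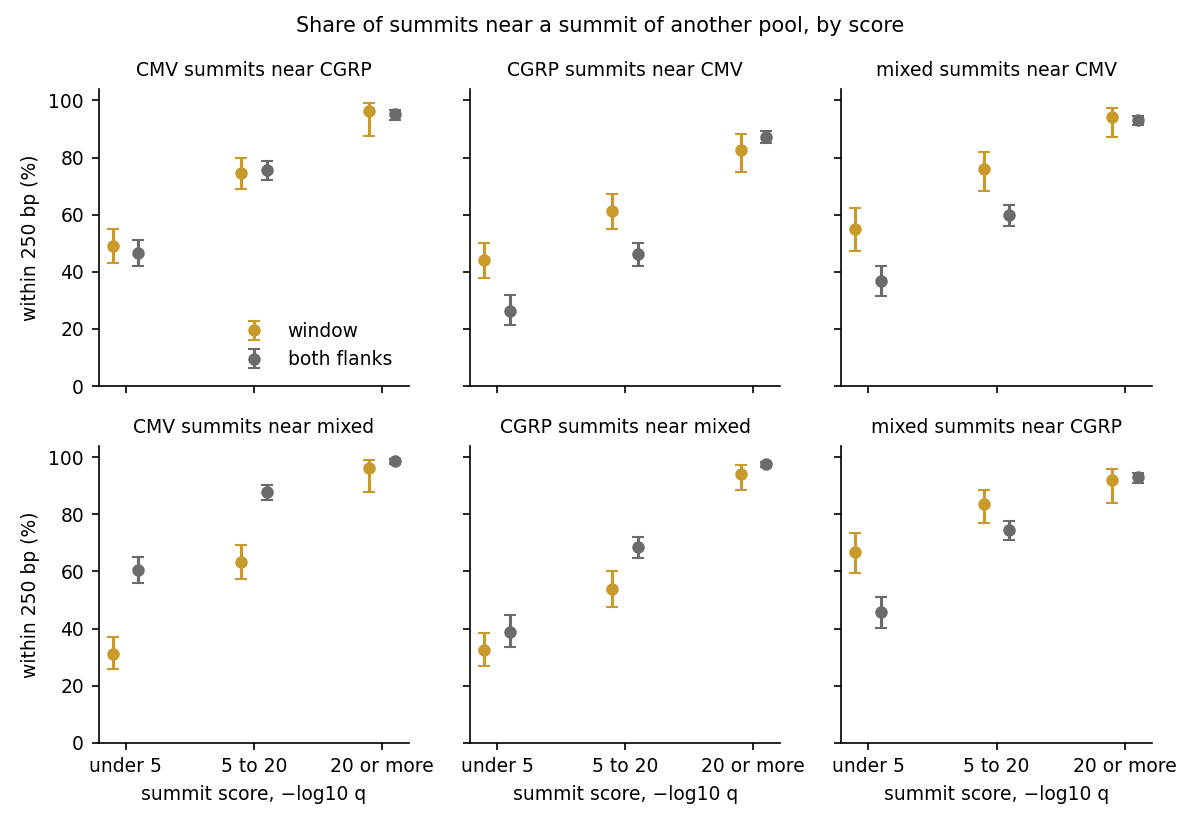
Percent of summits within 250 bp of another pool's summit (vertical) by score class, −log10 q (horizontal), for the 6 ordered pairs of pools, with window and flanks side by side and bars for 95% Wilson intervals. Weak CMV summits lay near a mixed summit less often in the window than in the flanks (31.3% and 60.5%), while weak CGRP summits lay near a CMV summit more often (44.0% and 26.3%).

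Nearest summits of different pools within 250 bp lay further apart in the window. Between CMV summits and their nearest CGRP summit within 250 bp the median distance was 42 bp in the window and 31 bp in the flanks, and between CGRP and mixed summits 36 and 23 bp. Before 147.2 Mb these medians were 44 and 49 bp, and after it 25 and 19.5 bp. Scores and density also differed between these stretches, and their part in the distances was not tested. Where sites were shared, scores followed each other between pools. The rank correlation of the best scores per site was 0.66 for CMV and CGRP (328 sites), 0.67 for CMV and mixed (261) and 0.76 for CGRP and mixed (293), against 0.72, 0.81 and 0.85 in the flanks. Before 147.2 Mb it was 0.52, 0.50 and 0.61, and after it 0.83, 0.90 and 0.88. These correlations describe sites of 1 region, which share its sequence, and the range of scores before 147.2 Mb was narrow.

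Joining the summits of all pools within 250 bp gave 776 sites in the window, or 258.7 per Mb, against 2353 sites and 168.1 per Mb in the flanks. Sites with a summit in all 3 pools numbered 226 and were about as frequent as in the flanks, 75.3 and 80.3 per Mb. Sites of the CMV pool alone numbered 140 (46.7 per Mb, 13.6 in the flanks) and sites of the CGRP pool alone 163 (54.3 and 22.7). Sites of the mixed pool alone were about as frequent in the window as in the flanks, 14.3 and 13.7 per Mb. Sites with a CMV and a CGRP summit but no mixed one stood furthest apart. They numbered 102, or 34.0 per Mb, against 45, or 3.21 per Mb, in the flanks, a ratio of 10.6. Sites with a CGRP summit hold the summits whose density chose the window, so their frequencies and this ratio are descriptions only.

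**Figure D5:**
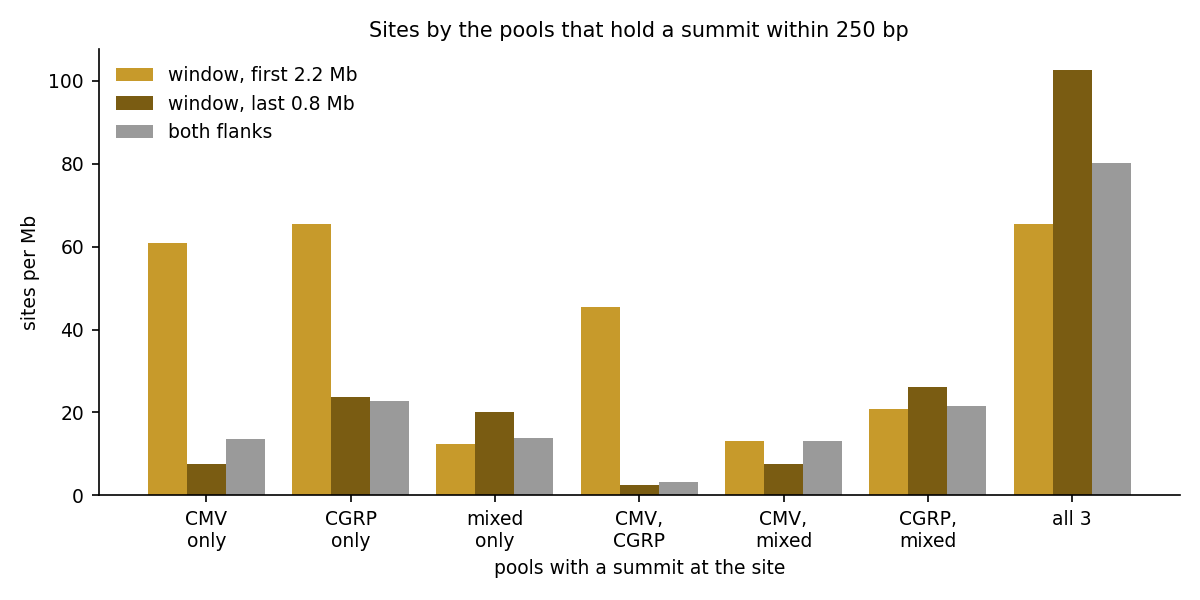
Sites per Mb (vertical) by the pools that hold a summit there within 250 bp (horizontal), for the first 2.2 Mb of the window, its last 0.8 Mb and both flanks. Sites of CMV and CGRP without the mixed pool reach 45.5 per Mb in the first 2.2 Mb, against 2.50 in the last 0.8 Mb and 3.21 in the flanks.

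Of the 328 sites with both a CMV and a CGRP summit, 31.1% (26.3 to 36.3) had no mixed summit, against 3.85% (2.89 to 5.11) of 1169 in the flanks. Before 147.2 Mb the share was 41.0% (35.0 to 47.2) of 244 sites, and after it 2.38% (0.655 to 8.27) of 84. By their share the window ranked 2nd of 792, where the median was 5.10%. It also held the largest number of such sites, against a median of 7. That number grows with the CGRP density by which the window was chosen, and the share is taken over sites with a CGRP summit. Number, share and both ranks are therefore descriptions only. With the 100000 best summits of each list, window and flanks differed by 12.5 percentage points in this share in place of 27.2. The 102 sites were spread over 24 bins of 100 kb, with 10 in the fullest, from 145.6 Mb. They were weak in both lists, with median best scores of 4.31 (CMV) and 5.18 (CGRP), and the best CMV and CGRP summits of a site lay a median of 50 bp apart. From their best CGRP summit, the nearest mixed summit was 281 to 23252 bp away (median 2987.5 bp). The strongest of these sites by its lower rank in the lists, chosen after its values were seen, had a CMV summit at 145605320 (7.80) and a CGRP summit at 145605421 (30.5), with the nearest mixed summit 4037 bp away. Its scores exceeded 47.3% and 54.4% of their lists. The 226 sites of all 3 pools had higher median best scores of 9.60 (CMV), 15.2 (CGRP) and 8.80 (mixed). The mixed pool is of its own preparation batch and holds libraries of both vectors, and the part of batch, depth or vector in this pattern was not tested.

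Of the authors' list of merged peaks as used here, with 114043 peaks, none lay in the window or in its left flank, and 449 lay in the right flank. Between the nearest merged peaks, which end at 97989381 and start at 148000816 on chromosome 4, 50.01 Mb held no merged peak but 6986 CMV, 5899 CGRP and 6895 mixed summits. Similar stretches without a merged peak were found on chromosome 7 (50.4 Mb) and chromosome X (92.6 Mb). Whether the stretch was left out by the authors' filter or is missing from the list for another reason could not be told from the files used here. The window therefore has no value here from either of the authors' comparisons, and its accessibility in Nfib-amplified tumors or in liver metastases was not analysed here. The first peak past the window, from 148000816 to 148001316, had a mean normalised count of 147.1 in the authors' deposited table. There, its log2 fold change was -0.25 (SE 0.36) for Nfib-amplified over not amplified Ad-CMV-Cre libraries. For liver metastases over lung tumors with Ad-CGRP-Cre it was 0.43 (SE 0.32) in the authors' deposited table.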

How the data were processed

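ATAC-seq was measured in 48 mouse tumor libraries. The submitters' processing notes name Bowtie2, MACS2, DESeq2 and build mm9, without versions or roles. Not given in the sources used here is the treatment of adapters, duplicates and reads with several matches. Per the labels, the authors listed summits for 3 pools of merged libraries. The score deposited by the authors starts at −log10 of 0.05 and was taken to be −log10 of a q-value. The mean normalised count, a signal, and the log2 fold changes with their SEs are the authors' values, per the file headers. Adjusted p-values deposited by the authors were not used. No column held per-library values, so no count model and no test was run.

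The window, its flanks and the lists of sites were chosen with earlier results of these data known. A summit was shared if another pool had one at most 250 bp away, and neighbouring summits at most that far apart were joined into sites. Named sites are the 5 highest summits of each pool, the 3 fullest and 3 emptiest bins of 100 kb, the longest stretch without a summit and the summits at the borders. Zinc finger genes are named as neighbours. Shares have Wilson intervals, density ratios exact binomial intervals and medians order-statistic intervals, all of 95% and for counting error only. Promoters were aligned end to end with edlib 1.3.9.post1. The functions were tested on simulated positions. Coordinates are 1-based. Computation used scipy 1.17.1, pandas 2.3.3 and numpy 2.4.6 in Python 3.11.15, with matplotlib 3.10.9 for plots. Alternatives used score minimums of 2 and 5, the 100000 best summits of each list, joined summits, distances of 100 and 500 bp, parts of the window and other reference regions. The stretches on either side of 147.2 Mb and the flanks without their sparsest megabase were added after the data were seen.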

Additional observations from a re-analysis of the deposited data

How the results depend on the processing

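No paired analysis was possible because each pool is 1 list and no result comes from a test. Of 151 alternative values, 101 stayed within the main value's 95% counting interval, 41 moved out of it, and 9 crossed no difference where the main interval had left it out. In all, 23 values crossed it, 15 of them in the mixed pool, whose density, spacing and sharing started near no difference. The density ratio to the flanks was most sensitive to score. With the 100000 best summits of each list it was 0.564 (CMV), 0.600 (CGRP) and 0.452 (mixed), and with scores of at least 5 it was 1.15, 1.09 and 0.713. For CMV it was 1.38 against the left flank and 1.83 against the right. Against the rest of chromosome 4 it was 2.65 (CGRP) and 1.33 (mixed), and against the whole genome 1.94 (CMV), 3.16 (CGRP) and 1.73 (mixed). In the first 2.2 Mb it was 1.75 for CMV, and in the last 0.8 Mb 1.09 (CMV), 1.23 (CGRP) and 1.19 (mixed). The ratio of median scores, 0.480 (CMV), 0.255 (CGRP) and 0.311 (mixed), was 0.526, 0.283 and 0.380 without its first megabase. Without the second it was 0.289 (CGRP) and 0.345 (mixed), and without the third 0.420, 0.224 and 0.249. In the first 2.2 Mb it was 0.423, 0.224 and 0.248. In the last 0.8 Mb it crossed 1, to 1.27 (0.850 to 1.85), 1.19 (0.737 to 2.28) and 1.56 (1.06 to 2.10). Only the mixed interval left out 1. The ratio of median spacing, 0.518 for CMV and 0.561 for CGRP, was 0.374 for CMV without the third megabase and 0.374 in the first 2.2 Mb. In the last 0.8 Mb it was 1.10 (0.774 to 1.27, CMV) and 0.816 (0.647 to 1.12, CGRP), with intervals that include 1. The share of summits near any other pool, in percentage points of window minus flanks, was -14.6 (CMV), -11.2 (CGRP) and -0.203 (mixed). Within 100 bp it was -19.0, -17.6 and -6.40, and within 500 bp it was -9.85 for CMV. For CMV it was -19.2 against the right flank and -19.2 in the first 2.2 Mb. With the 100000 best summits it was -3.99 for mixed. In the last 0.8 Mb it was 5.55 (-1.25 to 9.43, CMV) and 2.199 (-5.18 to 7.70, CGRP), with intervals that include no difference. The CGRP to CMV ratio of 1.11 was 1.56 with the 100000 best summits of each list. Those cut lists are of equal length, whereas the ratio over the whole lists was 0.686, so these values have unlike baselines. The share of CMV and CGRP sites without a mixed summit was 27.2 percentage points higher in the window than in the flanks. With the 100000 best summits it was 12.5 points higher, and without the window's first megabase 18.4. Without the third megabase it was 36.8 points higher, and in the first 2.2 Mb 37.1. In the last 0.8 Mb the difference was -1.47 (-3.61 to 4.50), an interval that includes no difference. The stretches of 2.2 and 0.8 Mb and all alternatives for these sites were chosen after seeing the data; the cause of these changes was not tested.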

Other observations

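Other 3 Mb windows also held many sites with a CMV and a CGRP summit but no mixed one. The window from 64 to 67 Mb of chromosome 13 came 2nd by number, with 66 of 215 such sites (30.7%), and had low median scores of 5.20 (CMV), 6.64 (CGRP) and 6.86 (mixed) over 364, 346 and 255 summits. By median score it ranked 4th from the lowest in the CGRP pool. The window from 91 to 94 Mb of chromosome 9 had 29 of 88 sites without a mixed summit, 33.0% and the highest share of the 792 windows, with 307 CMV, 125 CGRP and 117 mixed summits. Next by number was the window from 82 to 85 Mb of chromosome 9, with 26 of 190 (13.7%). Over all 792 windows the share was 5.45% of 116214 sites. These windows were found on the same lists after the values of the chromosome 4 window were known, and no gene was assigned to them.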
